A study of Mus musculus with 262 samples.

Results

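Insrr, Insr, Igf1r, Igf2r, Irs1 and Irs2 encode the insulin receptor family, the clearance receptor of insulin-like growth factor 2 and the main receptor substrates. These 6 genes were taken by symbol from every deposited table, out of 47069 genes in the 3 tables of TPM (transcript levels scaled by length and to a fixed total) and 24111 genes in the table of read counts. All 6 were found in each table, and all 6 passed the filter on low values in each of the 3 comparisons tested. The set was chosen by the single-cell TPM of Insrr, which had been seen to be high in type B intercalated cells. Its single-cell levels are therefore given as a description, without a test.

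The insulin receptor (Insr) and the type 1 receptor of insulin-like growth factors (Igf1r) are receptor tyrosine kinases that phosphorylate the adaptor proteins Irs1 and Irs2, which in turn engage the lipid kinase PI3K and the kinase Akt. Insrr, the insulin receptor-related receptor, is the remaining member of this kinase family; it does not bind insulin and is activated by alkaline extracellular fluid. Igf2r, the cation-independent mannose 6-phosphate receptor, has no kinase and carries insulin-like growth factor 2 and lysosomal enzymes into the cell. In the collecting duct, principal cells reabsorb sodium and water, type A intercalated cells secrete acid, and type B intercalated cells secrete bicarbonate through the exchanger pendrin, the product of Slc26a4.

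All RNA came from kidneys of male mice aged 2 months, and 262 samples were deposited. C57BL/6 mice gave single cells that had been sorted on PNA, on c-Kit, on DBA, or on both of the latter (the authors' types were 23 type B intercalated, 87 type A intercalated, 74 principal, 19 proximal tubule and 32 non-epithelial cells), 2 bulk samples sorted on c-Kit, 2 bulk samples sorted on DBA, 11 cortical collecting ducts (CCD) dissected by hand, and 8 thick ascending limbs of the cortex (cTAL). DBA and PNA are lectins that bind cell surface sugars, and c-Kit is a receptor carried by intercalated cells and also by mast cells. The strain labelled Atp6v1b1GFP, which is named for a reporter tied to a proton pump subunit of intercalated cells, gave 2 GFP-positive and 2 GFP-negative bulk samples. The single cells were captured on C1 microfluidic chips, 1 cell to a chamber. The labels give no treatment for any group, no animal is named for any sample, and the p-values below measure only the spread between these samples, which may be technical.

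Reads in genes numbered 35530885 to 40815091 in the GFP samples, and the depth of the TPM samples is unknown. The libraries differed in cell makeup. The summed level of the 6 proximal tubule markers was 15371 to 15997 CPM (counts scaled to a common library size) in GFP-negative and 1840.0 to 2920 CPM in GFP-positive samples, and that of 4 distal convoluted and connecting tubule markers was 119.6 to 147 CPM and 1175 to 1782 CPM. The 5 thick ascending limb markers summed to 8304 to 8650 CPM in GFP-negative and 9893 to 14791 CPM in GFP-positive samples. For the 7 principal cell markers these sums were 496 to 608 CPM and 1124 to 1867 CPM. The 7 principal cell markers summed to 22366 to 24929 TPM in DBA and 2524 to 3400 TPM in c-Kit samples. The 10 non-epithelial markers summed to 12089 to 12563 TPM in DBA and 3815 to 4057 TPM in c-Kit samples. In contrast, 3 mast cell markers summed to 56.4 to 65.7 TPM in c-Kit and to at most 0.32 TPM in DBA samples. Among the collecting ducts the second under the column prefix m2 stood apart, with 7621 genes at 1 TPM or more against 10323 to 14004 in the other 10. The cTAL had 8094 (the tubule under prefix m3) to 12385 such genes. The results of Insrr and Insr and the relation to markers across CCD are also given without the CCD that stood apart. In the cTAL the 3 type B markers summed to 0.63 to 4.85 TPM.

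The 3 receptor kinases are related in sequence, and their likeness bears on how far reads from them could be confused. In the GENCODE M21 annotation of GRCm38 the longest coding sequences measured 3903 bases for Insrr, 4119 for Insr and 4110 for Igf1r. Aligned pairs were 64.4% identical for Insrr and Insr, 66.5% for Insrr and Igf1r, and 68.1% for Insr and Igf1r. The longest run of identical bases between the coding sequences was 29 for Insrr and Insr, 23 for Insrr and Igf1r, and 19 for Insr and Igf1r. Over whole transcripts the longest run shared by Insr and Igf1r was 43 bases. The sources used here do not give the read length.

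Insrr spans chr3:87796951-87816101 and lies within Pear1, which is on the opposite strand, with 0 of 5714 exonic bases shared. Insr (chr8:3122061-3279617), Igf1r (chr7:67952827-68233668) and Igf2r (chr17:12682406-12769664) shared no exonic base with an annotated gene. Irs1 (chr1:82233101-82291416) shared 2822 of its 9144 exonic bases with Gm9747 on the opposite strand, and Irs2 (chr8:10984681-11008458) shared 162 of 6323 with 9530052E02Rik. The sources used here do not give the strand setting of the counting, so reads of Irs1 and Gm9747 may not be separable and levels of Irs1 carry that uncertainty.

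Insrr was high in type B cells and low in the other 4 types. The type B cells held their defining transcript: Slc26a4 averaged 1201 TPM in them. Insrr ranged from 0.14 to 434.5 TPM over the 23 type B cells, with a median of 110 TPM and a mean of 146 TPM, and 12 of the cells exceeded 100 TPM. It reached 1 TPM or more in 22 of 23 type B cells (95.7%, exact Clopper-Pearson 95% interval 78.1% to 99.9%). The mean was 10.4 TPM in type A cells, where 6 of 87 reached 1 TPM (6.90%, interval 2.57% to 14.4%), and 0.197 TPM in non-epithelial cells, where 1 of 32 did. Proximal tubule cells averaged 0.0832 TPM with 0 of 19 cells at 1 TPM, a share of at most 17.6% by the same interval. Principal cells had the lowest mean, 0.0338 TPM, with 1 of 74 cells at 1 TPM (1.35%, interval 0.0342% to 7.30%). PNA had been used to sort 17 of the 23 type B cells and none of the other types, so sort and type cannot be told apart for them. The intervals cover counting error only, cells of a type are not replicates, and a level of 0 in a cell does not show that the gene is silent there. The median number of genes at 1 TPM or more was 2759 in type B, 2704 in type A and 2924 in principal cells.

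**Figure D1:**
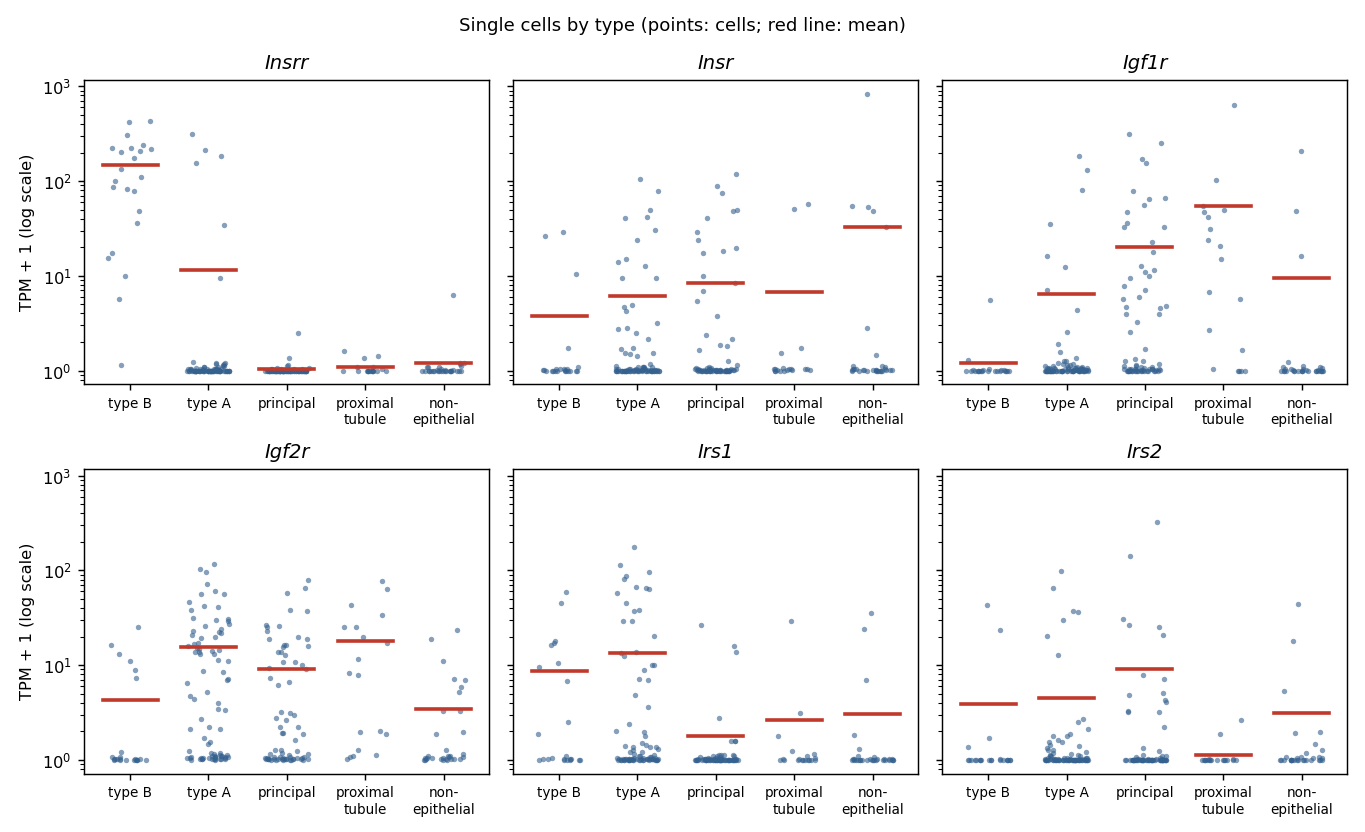
TPM + 1 on a log scale for the 6 genes in the single cells, by the authors' 5 cell types; each point is a cell and each red line is the mean. Insrr is at 1 TPM or more in 22 of 23 type B cells and in 8 cells of the other types together, while the other 5 genes are at 0 or close to it in many cells of every type.

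Within type B cells Insrr was uneven. The lower quartile was 41.2 TPM and the upper quartile 221 TPM, and 5 cells lay under 20 TPM although each held 403 TPM or more of Slc26a4. These 5 cells had a median of 2005 genes at 1 TPM or more, against 2999.5 in the other type B cells. The part of missed transcripts in their low Insrr was not tested. The single type B cell with less than 1 TPM of Insrr (0.14 TPM) had 439.3 TPM of Slc26a4 and 509 TPM of Hmx2, a transcription factor gene of type B cells, but 0.06 TPM of Slc4a9, which encodes a transporter of the anion exchanger family. Over the 23 cells, which share a library type and unknown depths, Pearson's r of Insrr on the log2(TPM + 1) scale was 0.34 with Slc26a4, 0.48 with Slc4a9, -0.18 with Hmx2 and -0.08 with Foxi1, the transcription factor gene of intercalated cells.

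Of the 30 cells with Insrr at 1 TPM or more, 8 had other labels. The 6 labelled type A ranged from 8.57 to 312.75 TPM, and 4 of them exceeded 100 TPM, which is within the range of type B cells. None of the 6 had Slc26a4 at 1 TPM or more, the highest value being 0.47 TPM, whereas 5 of the 6 had Slc4a9 above 1 TPM, from 9.03 to 697 TPM, and 1 had 94.4 TPM of Hmx2. Slc4a1, which encodes the type A anion exchanger, reached 1 TPM in 4 of the 6, with values from 6.39 to 833.79 TPM. The remaining 2, at 0.05 and 0.49 TPM of Slc4a1, held 261 and 492.7 TPM of Slc4a9. The principal cell with Insrr held 1.50 TPM of it, beside 544 TPM of Aqp2, 41.5 TPM of Foxi1 and 292 TPM of Kit. The non-epithelial cell held 5.31 TPM of Insrr, beside 10.7 TPM of Slc4a1 and 17.9 TPM of Aqp2.

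Over the cells of all 5 types the genes whose log2(TPM + 1) profile was most like that of Insrr, among 8339 genes at 1 TPM in at least 20 cells, were Slc26a4 (r = 0.81), Hmx2 (0.70), Igfbp5 (0.55), Syn2 (0.49) and Ppp1r14b (0.46). All 5 had their highest mean in type B cells. The cells share library preparation and differ in depth by an unknown amount, so these values are descriptions.

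The other 2 receptor kinases were not concentrated in type B cells, and Insr was sparse in every type. Insr reached 1 TPM in 3 of 23 type B, 20 of 87 type A, 18 of 74 principal, 2 of 19 proximal tubule and 6 of 32 non-epithelial cells, and its median was at most 0.04 TPM in every type. Its mean was 2.79 TPM in type B, 5.07 in type A, 7.48 in principal and 5.71 in proximal tubule cells. The mean of 32.0 TPM in non-epithelial cells rested on a cell of 837 TPM, without which it was 6.07 TPM. The order of the types for Insr is therefore not resolved by these cells.

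Igf1r reached 1 TPM in 13 of 19 proximal tubule cells (68.4%, interval 43.4% to 87.4%), 30 of 74 principal cells (40.5%, interval 29.3% to 52.6%) and 9 of 87 type A cells (10.3%, interval 4.84% to 18.7%). In type B cells it did so in 1 of 23 (4.35%, interval 0.110% to 21.9%), and in non-epithelial cells in 3 of 32. Its mean fell in the order proximal tubule (53.7 TPM), principal (19.3 TPM), non-epithelial (8.44 TPM), type A (5.38 TPM) and type B (0.215 TPM). In the proximal tubule 61.8% of the sum came from 1 cell, and without the highest cell of each type the first 2 means were 21.7 and 15.3 TPM. In non-epithelial cells 76.6% of the sum came from 1 cell, and without the highest cells their mean was 2.04 TPM, under the 3.31 TPM of type A cells, so the order of these 2 types was not stable. Of the 23 type B cells, 19 had neither Insr nor Igf1r at 1 TPM, as had 60 of 87 type A and 36 of 74 principal cells.

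The clearance receptor gene Igf2r reached 1 TPM in 107 cells outside type B, more than any other of the 6 genes, the next being Igf1r with 55. It reached 1 TPM in 12 of 19 proximal tubule cells (mean 17.2 TPM), 52 of 87 type A cells (14.5 TPM), 34 of 74 principal cells (8.12 TPM), 6 of 23 type B cells (3.32 TPM) and 9 of 32 non-epithelial cells (2.48 TPM). The shares were 59.8% in type A (interval 48.7% to 70.1%) and 26.1% in type B cells (interval 10.2% to 48.4%).

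The 2 substrate genes had different profiles. Irs1 was mainly found in intercalated cells, in 27 of 87 type A (31.0%, interval 21.5% to 41.9%, mean 12.5 TPM) and 9 of 23 type B cells (39.1%, interval 19.7% to 61.5%, mean 7.68 TPM). In principal cells it reached 1 TPM in 4 of 74 (5.41%, interval 1.49% to 13.3%, mean 0.789 TPM). Irs2 reached 1 TPM in 16 of 74 principal cells (21.6%, interval 12.9% to 32.7%, mean 8.13 TPM), 10 of 87 type A (mean 3.51 TPM) and 2 of 23 type B cells (mean 2.86 TPM). In principal cells 54.3% of the sum of Irs2 came from 1 cell, and the mean without it was 3.77 TPM, while type A and type B cells without their highest cell averaged 2.42 and 1.06 TPM. Both substrates were at 1 TPM in the same cell in 2 type A cells and in no cell of the other 4 types.

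The c-Kit and DBA samples address which genes differ between fractions enriched for intercalated and for principal cells. These fractions also differed in proximal tubule, non-epithelial and mast cell markers. Of the 6 genes, Insrr and Irs1 were higher and Igf1r was lower in c-Kit samples, at an adjusted p under 0.05 in limma on log2(TPM + 1). Over the 14341 genes tested 44.3% were called, 16.1% as higher and 28.1% as lower. The median log2 difference was 0.10 over the 6 genes and -0.11 over all genes tested. In bulk samples, fewer cells of a type and less RNA per cell cannot be told apart. With quantile normalization the share of calls that were higher was 49.9%, against 36.5% without it, and the median over all genes was 0.02.

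Insrr was 95.3 and 89.9 TPM in c-Kit samples and 19.5 and 15.7 TPM in DBA samples. The 2 groups were well separated, with a log2 difference of 2.34 on the log2(TPM + 1) scale (SE 0.11, adjusted p = 2.15e-05, limma). Slc26a4 moved with it, at 481 and 457 TPM against 79.2 and 66.7 TPM, so that Insrr per unit of Slc26a4 was 0.198 and 0.197 in c-Kit and 0.247 and 0.236 in DBA samples. The 3 type B markers together summed to 1521 to 1543 TPM in c-Kit and 144 to 158 TPM in DBA samples, all 3 being at 1 TPM or more in both. Slc4a9 differed most, with means of 971 and 54.6 TPM. Its log2 difference was 4.13, beside 2.67 for Slc26a4 and 1.92 for Hmx2 (limma). Slc4a9 also reached 697 TPM in a single cell labelled type A, which held 94.4 TPM of Hmx2 as well. Whether the sum reflects type B cells alone was not tested, nor was the part of type B cells in the difference of Insrr.

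Igf1r was 2.69 and 2.61 TPM in c-Kit samples against 8.30 and 8.00 TPM in DBA samples. This receptor was lower with the c-Kit sort, by a log2 difference of -1.33 (SE 0.16, adjusted p = 8.24e-04, limma). The 6 proximal tubule markers summed to 1394 to 1557 TPM in c-Kit and 3011 to 3110 TPM in DBA samples, and all 6 were at 1 TPM or more. The part of these cells and of principal cells in the difference was not tested. Insr was 18.4 and 15.0 TPM against 20.0 and 25.1 TPM, groups that do not overlap but whose log2 difference of -0.41 was not called (SE 0.15, adjusted p = 0.0671, limma). It was called when genes under a mean of 10 TPM were left out (adjusted p = 0.0439, limma).

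Igf2r was 12.2 and 10.2 TPM in c-Kit and 9.60 and 8.93 TPM in DBA samples, a log2 difference of 0.24 that was not called (SE 0.14, adjusted p = 0.208, limma). With quantile normalization it was 0.49 and was called (adjusted p = 0.0286, limma). Irs1 was 9.51 and 11.3 TPM in c-Kit samples and 1.78 and 1.57 TPM in DBA samples, a log2 difference of 2.09 (SE 0.17, adjusted p = 1.82e-04, limma). Gm9747, which overlaps it, showed the same direction at 26.9 and 33.1 against 4.94 and 5.49 TPM (log2 difference 2.31, adjusted p = 5.13e-05, limma). Irs2 had 41.7 and 39.0 TPM in c-Kit and 39.9 and 42.8 TPM in DBA samples. These values overlapped, with a log2 difference of -0.03 (SE 0.08, adjusted p = 0.768, limma), and Irs2 was 3.88 times Irs1 in c-Kit but 24.7 times Irs1 in DBA samples by the ratio of mean TPM.

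The GFP samples address which genes differ between cells with and without the Atp6v1b1 reporter. Of the 6 genes, Insrr, Irs1 and Irs2 were called higher and Igf1r and Igf2r lower in GFP-positive samples by edgeR's quasi-likelihood test on counts, and Insr was not called. Over 15671 genes tested 32.6% were called, 15.2% as higher and 17.3% as lower, and the median log2 difference was 0.44 over the 6 genes and 0.02 over all genes.

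Insrr had 366 and 302 CPM in GFP-positive and 2.41 and 3.66 CPM in GFP-negative samples. It was the member with the widest separation, with a log2 difference of 6.79 (SE 0.28, adjusted p = 2.41e-05, edgeR). The 3 type B markers summed to 1365 to 2002 CPM in GFP-positive and 10.4 to 18.1 CPM in GFP-negative samples, and the part of these cells in the difference was not tested. Insr, its closest relative here in the shared run of bases, had 356 and 341 CPM against 301 and 327 CPM, a log2 difference of 0.15 (SE 0.17, adjusted p = 0.545, edgeR). On the authors' RPKM scale, which also divides by gene length, Insr was 55.5 and 65.7 against 32.1 and 39.0, a log2 difference of 0.75 that was not called either (adjusted p = 0.111, limma). The RPKM values summed to between 387574 and 739301 per sample and were not rescaled. All fits on RPKM given here carry that limit.

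Igf1r had 331 and 288 CPM in GFP-positive samples and 679 and 735 CPM in GFP-negative samples. It was lower with the reporter, by a log2 difference of -1.19 (SE 0.18, adjusted p = 0.00145, edgeR), but was not called on RPKM values (-0.60, adjusted p = 0.162, limma). All 6 proximal tubule markers were also called lower in GFP-positive samples, with a median log2 difference of -2.47, and their part in the difference of Igf1r was not tested.

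Igf2r had 248 and 179 CPM against 395 and 309 CPM, a log2 difference of -0.72 (SE 0.22, adjusted p = 0.0342, edgeR). Irs1 had 229.97 and 209 CPM in GFP-positive and 22.2 and 28.7 CPM in GFP-negative samples, a log2 difference of 3.11 (SE 0.20, adjusted p = 4.68e-05, edgeR). Irs2 had 69.6 and 97.2 CPM against 42.2 and 58.2 CPM, a log2 difference of 0.73 (SE 0.23, adjusted p = 0.0408, edgeR). Groups did not overlap for any of these 3 genes. The calls of Igf2r and Irs2 depended on single libraries: without GFP-negative replicate 1 the log2 differences were -0.54 and 0.51 (adjusted p = 0.158 and 0.199, edgeR), and without GFP-positive replicate 2 they were -0.50 and 0.48 (adjusted p = 0.144 and 0.215, edgeR). On RPKM values neither was called (adjusted p = 0.225 and 0.439, limma).

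**Figure D2:**
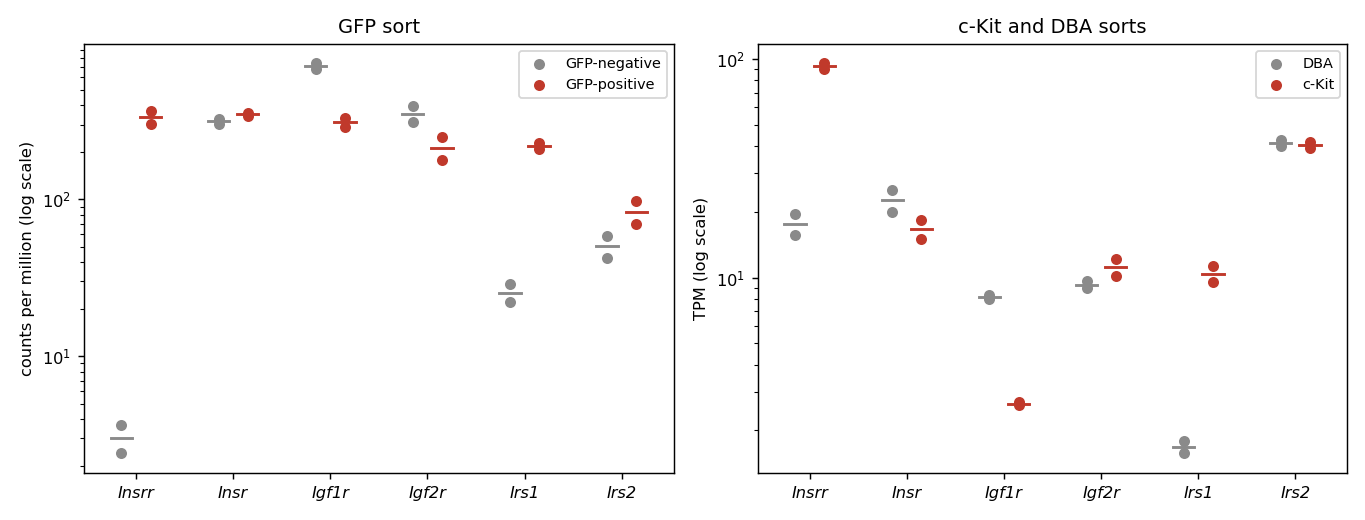
Levels of the 6 genes in sorted bulk samples on log scales, in CPM for the GFP sort (left) and TPM for the c-Kit and DBA sorts (right); points are samples, 2 per group, and short lines are group means. Insrr and Irs1 lie higher in the GFP-positive and c-Kit samples and Igf1r lies lower, while Irs2 overlaps between c-Kit and DBA samples.

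Single tubules address which genes differ between the cortical collecting duct and the cortical thick ascending limb. Of the 6 genes only Insrr was called, against 18.7% of the 13520 genes tested, 13.2% as higher and 5.50% as lower in CCD (limma on log2(TPM + 1)). The median log2 difference was 0.10 over the 6 genes and 0.31 over all genes. Quantile normalization moved the latter to -0.03 and the share of calls that were higher in CCD from 70.5% to 49.5%, so differences smaller than this shift depend on the scaling.

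Insrr ranged from 101 to 340.4 TPM over the 11 CCD, with a median of 158 TPM and a mean of 199 ± 90.3 TPM (SD, n = 11). In the 8 cTAL it ranged from 0.03 to 0.34 TPM, with a median of 0.16 TPM and a mean of 0.166 ± 0.108 TPM (SD, n = 8). Every CCD was above every cTAL, and the log2 difference was 7.29 (SE 0.29, adjusted p = 5.88e-15, limma), or 7.37 without the CCD that stood apart (adjusted p = 3.79e-15, limma). On this scale the difference understates the ratio, because the cTAL values were far under the pseudocount of 1 TPM.

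Insr was at a similar level in both segments. It ranged from 21.7 to 76.5 TPM in CCD (median 39.5, mean 41.9 ± 14.2, SD, n = 11) and from 19.7 to 60.2 TPM in cTAL (median 40.4, mean 39.7 ± 14.6, SD, n = 8). The log2 difference of 0.10 was under its SE of 0.27 (adjusted p = 0.834, limma) and was -0.12 with quantile normalization. The highest CCD value of Insr, 76.5 TPM, was in the tubule that stood apart, and without it the log2 difference was 0.01 (adjusted p = 0.977, limma).

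Igf1r ranged from 0.01 to 4.11 TPM in CCD (median 1.50, mean 1.86 ± 1.31, SD, n = 11) and from 0.46 to 25.1 TPM in cTAL (median 4.83, mean 6.67 ± 8.12, SD, n = 8). The ranges overlapped and the log2 difference of -0.96 was not called (SE 0.50, adjusted p = 0.207, limma), although it was with quantile normalization (-1.41, adjusted p = 0.0281, limma). The cTAL were uneven, with 3 of the 8 under 2 TPM and 2 above 10 TPM.

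Igf2r had a mean of 3.51 ± 2.18 TPM in CCD (range 0.02 to 6.55, median 3.41, SD, n = 11) and 5.19 ± 4.66 TPM in cTAL (range 0.03 to 15.3, median 3.52, SD, n = 8), a log2 difference of -0.32 (adjusted p = 0.711, limma). Irs1 had a mean of 2.73 ± 1.94 TPM in CCD (range 0.03 to 5.98, median 1.90, SD, n = 11) and 2.84 ± 3.05 TPM in cTAL (range 0.07 to 9.70, median 2.38, SD, n = 8), a log2 difference of 0.10 (SE 0.45, adjusted p = 0.915, limma). Irs2 had a mean of 15.9 ± 7.13 TPM in CCD (range 6.99 to 27.3, median 14.9, SD, n = 11) and 12.0 ± 8.84 TPM in cTAL (range 4.40 to 32.2, median 10.3, SD, n = 8), a log2 difference of 0.48 (SE 0.37, adjusted p = 0.431, limma). All 3 overlapped between segments. In the CCD that stood apart Igf1r, Igf2r and Irs1 were at 0.01, 0.02 and 0.03 TPM, the lowest of the 11, while Irs2 was at 27.2 TPM. The cTAL under prefix m3 held the lowest cTAL values of Igf2r (0.03 TPM) and Irs1 (0.07 TPM). With each tubule left out in turn, the log2 difference ran from -1.22 to -0.62 for Igf1r and from -0.64 to -0.07 for Igf2r. It ran from -0.12 to 0.36 for Irs1 and from 0.33 to 0.71 for Irs2, and none of these was called (limma).

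**Figure D3:**
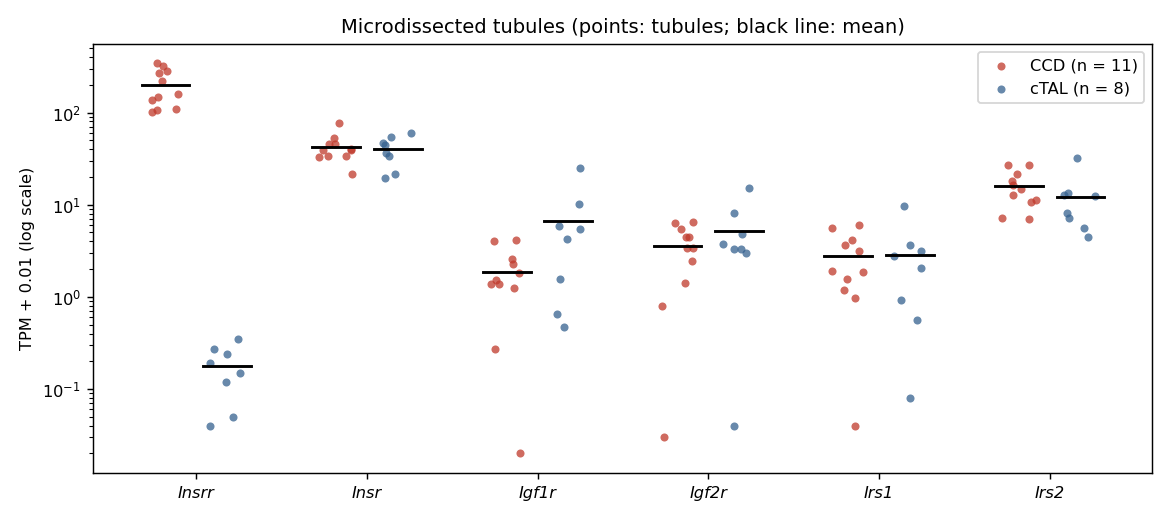
TPM + 0.01 on a log scale for the 6 genes in 11 CCD (red) and 8 cTAL (blue); points are tubules and black lines are means. Insrr is at 101 TPM or more in every CCD and at 0.34 TPM or less in every cTAL, whereas the ranges of the other 5 genes overlap.

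Among the 6 genes in single CCD, the order of mean TPM was Insrr (199), Insr (41.9), Irs2 (15.9), Igf2r (3.51), Irs1 (2.73) and Igf1r (1.86). The ranges of Insrr and Insr did not overlap, nor did those of Irs2 and Igf2r, while the other neighbours in this order overlapped. In c-Kit samples Insrr was likewise first (92.6 TPM), followed by Irs2 (40.3 TPM), Insr (16.7 TPM), Igf2r (11.2 TPM), Irs1 (10.4 TPM) and Igf1r (2.65 TPM). In DBA samples Irs2 (41.3 TPM) and Insr (22.6 TPM) lay above Insrr (17.6 TPM). In cTAL Insr led (39.7 TPM) and Insrr was last (0.166 TPM).

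Across the 11 CCD, Insrr was compared with a marker of each of 3 cell types on the log2(TPM + 1) scale, with p-values from 100000 permutations, two-sided, adjusted over the 3 relations. With Slc26a4, for type B cells, Pearson's r was 0.775 (permutation p = 0.00670, adjusted 0.0201) and Spearman's rho 0.673 (permutation p = 0.0280, adjusted 0.0839). With Slc4a1, for type A cells, r was 0.51 (permutation p = 0.110, adjusted 0.158) and rho 0.518 (permutation p = 0.109, adjusted 0.163). With Aqp2, the water channel gene of principal cells, r was -0.452 (permutation p = 0.158, adjusted 0.158) and rho -0.445 (permutation p = 0.169, adjusted 0.169).

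By Pearson's r, the relation with Slc26a4 passed the threshold in some smaller sets of points and not in others. Without the 2 farthest from the median of Slc26a4, r was 0.658 (exact permutation p = 0.0519, adjusted 0.156, n = 9), with Slc4a1 it was 0.393, and with Aqp2 -0.278. Several tubules share a column prefix whose meaning is not given in the labels, and over the means of the 7 prefixes r with Slc26a4 was 0.698 (exact permutation p = 0.103, adjusted 0.278, n = 7). Without the CCD that stood apart, r was 0.815 with Slc26a4 (permutation p = 0.00580, adjusted 0.0174, n = 10), 0.678 with Slc4a1 (permutation p = 0.0369, adjusted 0.0553) and -0.315 with Aqp2 (permutation p = 0.361, adjusted 0.361). The ratio of Insrr to Slc26a4 in TPM ran from 0.0957 to 0.312 over the CCD, with a median of 0.163, and the lowest ratio was in the tubule that stood apart. In the means over type B single cells it was 0.122.

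**Figure D4:**
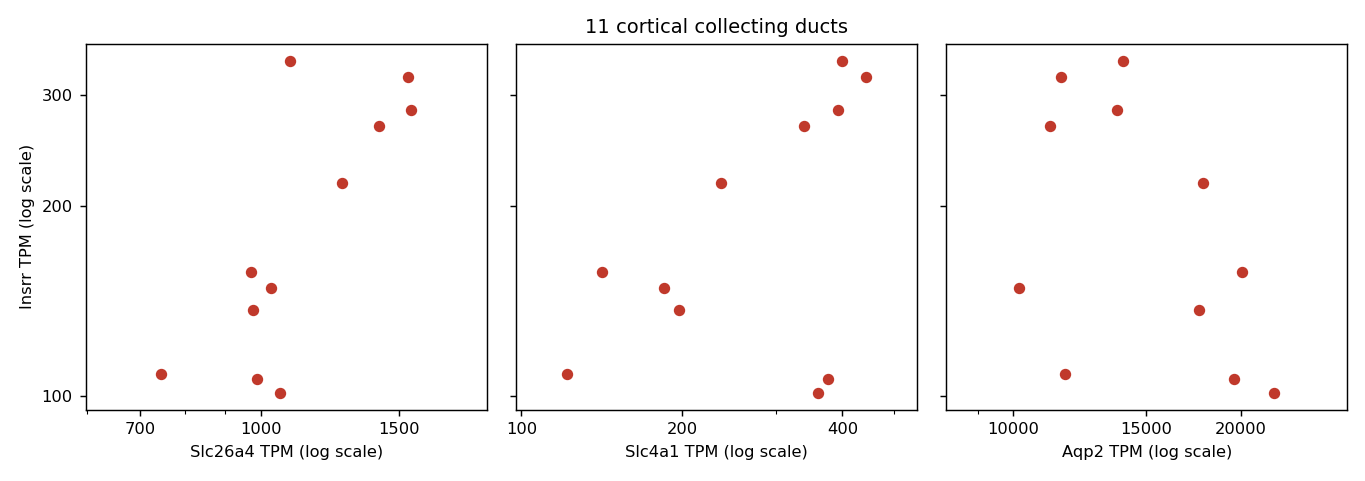
Insrr against Slc26a4 (left), Slc4a1 (middle) and Aqp2 (right) in the 11 CCD, in TPM on log scales; each point is a tubule. The points rise from lower left to upper right for Slc26a4 (r = 0.775), less closely for Slc4a1 (r = 0.51), and fall loosely for Aqp2 (r = -0.452).

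Other genes of insulin and insulin-like growth factor signalling were read from a list of 55. In c-Kit against DBA samples 49 were tested and 5 were called higher and 24 lower, with a median log2 difference of -0.32, against 16.1% higher, 28.1% lower and a median of -0.11 over all genes tested. Those called higher were Slc2a4 (3.50), the gene of the insulin-responsive glucose transporter, Grb10 (2.66), an adaptor that inhibits both receptors, Akt2 (0.65) and Tsc1 (0.61), of the kinase cascade, and Sh2b1 (0.38), a receptor adaptor (log2 differences, limma). Slc2a4 was 201 ± 11.3 TPM in c-Kit and 16.8 ± 1.67 TPM in DBA samples (SD, n = 2 each). Among 10 genes of binding proteins and ligand handling, 8 were called lower. They included Igfbp6 (-2.05), Pappa (-2.02), a protease that cleaves binding proteins, Igfbp7 (-1.73) and Igfbp2 (-1.68). The ligand gene Igf1 was lower as well (-2.30), and the part of non-epithelial cells in these differences was not tested. Left-out samples ended the calls of Sh2b1 (without DBA replicate 2), Tsc1 (without c-Kit replicate 2 or DBA replicate 2) and Igfbp2 (without c-Kit replicate 2 or DBA replicate 1), with log2 differences of 0.33, 0.54 and 0.50, and -1.29 and -1.30.

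In the GFP samples 50 of the 55 were tested, and 7 were called higher and 7 lower, with a median log2 difference of 0.09, against 15.2% higher, 17.3% lower and a median of 0.02 over all genes tested. Pappa (2.80), Grb14 (2.65), an inhibitory adaptor, Slc2a4 (2.10), Pik3r3 (1.70), a regulatory subunit of PI3K, and Grb10 (1.68) led the higher genes (log2 differences, edgeR). Igfbp1 (-3.76), Igfbp3 (-2.67), Igf1 (-2.45), Igfbp4 (-1.87) and Mtor (-1.11) led the lower ones. Igf1 lost its call when GFP-negative replicate 1 (-1.19) or GFP-positive replicate 2 (-2.01) was left out. Slc2a4, Grb10 and Sh2b1 (0.74 here) were called higher in both the GFP-positive and the c-Kit samples, whereas Pappa was higher in GFP-positive and lower in c-Kit samples.

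In the tubules 45 of the 55 were tested, and 6 were called higher and 3 lower in CCD, with a median log2 difference of 0.23, against 13.2% higher, 5.50% lower and a median of 0.31 over all genes tested. Sgk1 (5.23), the aldosterone-responsive kinase gene, Grb10 (3.10) and Pappa (2.49) were higher, as were Rptor (1.69) and Irs3 (1.21), while Slc2a4 (-1.95), Igfbp1 (-1.89) and Igf1 (-1.24) were lower (log2 differences, limma). Rptor (0.80) and Irs3 (0.50) were not called with quantile normalization. Leaving out single tubules ended the call of Irs3 for 15 of the 19 (log2 differences 1.03 to 1.24) and that of Igfbp1 for 13 (-1.95 to -1.51). Igf1 lost its call without the cTAL under prefix m3 (-1.07) or the first under m7 (-1.20), and Slc2a4 without the cTAL under m4 (-1.76). Grb10 was called higher and Igf1 lower in each of the 3 comparisons, the call of Igf1 in the GFP samples and tubules being lost without single samples as given above. Grb10 was 18.6 ± 7.39 TPM in CCD (SD, n = 11) and 1.82 ± 2.29 TPM in cTAL (SD, n = 8).

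Among single cells, the pathway genes with a highest type mean of at least 20 TPM and 4 times the next, after adding 1, were 7. Igfbp5, which encodes a binding protein of insulin-like growth factors, averaged 103 TPM in type B cells (18 of 23 at 1 TPM or more, median 32.8 TPM) and 17.3 TPM in proximal tubule cells (9 of 19). Pappa averaged 28.2 TPM in principal cells (47 of 74) and 4.20 TPM in type A cells (9 of 87). Igfbp4 averaged 69.0 TPM in proximal tubule cells (16 of 19) against 3.07 TPM in non-epithelial cells. Igfbp6 (3 of 19 proximal tubule cells), Shc1 (12 of 74 principal cells), Pik3r2 (4 of 74 principal cells) and Trib3 (1 of 32 non-epithelial cells) met the rule through few cells.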

How the data were processed

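Bulk samples, single cells and single tubules were taken to groups by their titles. The members and gene lists were chosen with earlier results of these data known. For single cells, c-Kit and DBA samples and tubules the authors deposited TPM values that sum to the same total in each sample; the unit of the tubule table was read from its values. The submitters' processing notes name STAR 2.5.1b, RSEM 1.2.31, Seurat and GRCm38.p5. For the GFP samples the deposited read counts were made with HTSeq-count, and the authors' RPKM values were used in an alternative; both rest on RefSeq genes of mm10, as the file names state. Reads assigned to no gene, 66.7% to 72.8% of those listed, stayed out of library sizes.

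Here, counts were tested with edgeR 4.0.16 (TMM, filterByExpr, quasi-likelihood F test) and TPM with limma 3.58.1 on log2(TPM + 1) with a variance trend, among genes at a mean of 1 TPM or more, in R 4.3.3. P-values were adjusted by Benjamini-Hochberg over all genes tested and called under 0.05, and each fit held only the 2 groups compared. CPM values use TMM library sizes. Single cells were summarised per type with every cell kept, with exact 95% intervals in scipy 1.17.1, and no doublet caller was run because TPM are not counts of molecules. The running numbers of single-cell columns are not stated to be those of the titles, so sort labels were not tied to columns. The fits were tested on simulated independent samples in which 200 genes changed by 4-fold. In the GFP comparison 98.5% were recovered (15466 genes, 2 false calls). There the spread between simulated samples was fixed for all genes and not estimated from these data, so this share holds for that setting only. The share was 94.5% in c-Kit against DBA (14130 genes, 5 false calls) and 65.5% in CCD against cTAL (12966 genes, 4 false calls). The changed genes were drawn from those above a minimum level. These shares therefore do not cover genes at low levels, such as Igf1r, Igf2r and Irs1 in the tubules.

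The genes named are the 6 members, the 5 pathway genes per direction with the largest log2 difference among those called in each comparison, pathway genes passing the size rule in single cells, and the 5 (Insrr) or 3 (others) genes with the highest r over cells. Coding sequences came from GENCODE M21; sequence stretches of the receptors are not reported here. Alternatives were DESeq2 1.42.0, other size factors, filters, pseudocounts (0.1, 5), quantile normalization, no variance trend, sample weights, a replicate block and leaving out each sample; those on column prefixes and on the outlying CCD in the marker relation were added after seeing the data.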

Additional observations from a re-analysis of the deposited data

Results flagged for a closer look

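In the 8 cTAL, the highest value of 3 of the 6 genes stood far from the rest in TPM by Dixon's test of the gap to the nearest value. Chance passes this test in about 1 in 20 groups if values are normally distributed, which was not checked for TPM. The test was not run on the log2(TPM + 1) scale of the fits, so the values are only flagged here. Igf1r was 25.14 TPM in the first cTAL under prefix m2, against 10.1 TPM in the next highest. Irs2 was 32.19 TPM in the same tubule, against 13.5 TPM in the next highest. Irs1 was 9.7 TPM in the cTAL under prefix m1, against 3.62 TPM in the next highest. Without the m2 tubule the log2 difference of Igf1r between CCD and cTAL was -0.62 and that of Irs2 was 0.71, and without the m1 tubule that of Irs1 was 0.36, none of them called by limma (adjusted p = 0.409, 0.200 and 0.645).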

How the results depend on the processing

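Over the alternatives run, no called difference changed sign. Among those not called, the sign changed under some for Insr (-0.12 to 0.20), Igf2r (-0.83 to 0.19) and Irs1 (-0.54 to 0.72) in CCD against cTAL and for Irs2 (-0.08 to 0.05) in c-Kit against DBA. Of the results that answer a comparison, 111 of their recomputed values kept their direction and call or stayed within 1.5 times, 10 moved and 2 fell short of the threshold; of single genes and shares, 687 kept them, 62 lost a call, 3 gained one and 3 moved. On RPKM values limma called 1639 genes in the GFP comparison in place of 5101, and 2 of the 6 members in place of 5. Leaving out a sample gave 3616 to 4211 genes and 3 to 5 members there, 3458 to 5701 genes (6348 with all samples) and 3 members in c-Kit against DBA, and 2239 to 3078 genes (2526 with all) and 1 member in CCD against cTAL. Where a group was left with 1 sample, that sample was assumed to vary like the other group. Sample weights gave 4401 genes in CCD against cTAL. With quantile normalization Igf1r was called there beside Insrr, as given above. The cause of these moves was not tested.

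The mean of Insrr in type B cells was 146 TPM, its median 109.89 TPM and its mean without the highest cell 133.15 TPM. Pearson's r of Insrr with Slc26a4 over CCD was 0.66 without the 2 farthest tubules and 0.70 over prefix means, both short of the threshold, and fewer points entered each.

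The labels do not say what a replicate number stands for. The headers of the RPKM values name a first and a second experiment, each with a GFP-positive and a GFP-negative sample, without tying them to the replicate numbers. Same-numbered samples deviated together with r = 0.157 in the GFP samples and 0.026 in c-Kit and DBA samples, and tubules under a shared prefix with r = 0.015 to 0.159. With the replicate block 5897 genes were called in the GFP comparison, 6271 in c-Kit against DBA and 2588, by column prefix, in CCD against cTAL, and the block changed the call of none of the 6 members in any of the 3 comparisons. TPM keep no depth, so a low level in single cells or tubules cannot be told from a missed transcript, and 2 samples per group limit the bulk comparisons.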

Other observations

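Over the cells of all 5 types the genes with profiles most like those of the other 5 members had r of 0.74 or less, against 0.81 for Insrr and Slc26a4. Irs1 had r = 0.74 with Gm9747, the gene that shares its exonic bases on the opposite strand, then 0.44 with Exoc3l4 and 0.40 with Hepacam2, both highest in type B cells. Igf1r had r = 0.39 with Ndrg1 and 0.38 with Slc13a1, a sulfate transporter gene, both highest in proximal tubule cells, and 0.38 with Kif12, highest in principal cells. The highest values were 0.35 for Igf2r (Acot2), 0.31 for Insr (Atg2a) and 0.30 for Irs2 (Cln8). In sparse single-cell values such weak r are descriptions of these cells only.

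Pear1, within which Insrr lies on the opposite strand, did not follow it. In c-Kit samples Pear1 was 4.98 ± 1.54 TPM and in DBA samples 32.9 ± 2.24 TPM (SD, n = 2 each), a log2 difference of -2.52 (adjusted p = 1.14e-04, limma) where that of Insrr was 2.34. In CCD it was 13.6 ± 8.94 TPM (SD, n = 11) and in cTAL 5.51 ± 5.34 TPM (SD, n = 8), with overlapping ranges (log2 difference 1.44, adjusted p = 0.123, limma). Gm9747 was 16.8 ± 8.64 TPM in CCD (SD, n = 11) and 16.4 ± 7.57 TPM in cTAL (SD, n = 8), a log2 difference of -0.08 (adjusted p = 0.945, limma), beside 0.10 for Irs1.

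At 1 TPM or more, 1 of 23 type B, 16 of 87 type A, 15 of 74 principal, 1 of 19 proximal tubule and 14 of 32 non-epithelial cells had none of the 6 members. The type B count follows from the choice of the set. It was chosen by the level of Insrr in type B cells, which reached 1 TPM in 22 of the 23.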
